A study of Mus musculus with 3 samples.

Results

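Clusters 3 and 5 of the Ctrl library were 2 of its 14 clusters of nuclei, and 2 of 46 clusters in the whole series. Nuclei had been grouped into clusters from their own gene expression in the authors' Cell Ranger run, and these 2 clusters were chosen by the mesothelial genes Gpm6a, Upk1b, Msln, Col8a1 and Isl1. Every level and every difference below is therefore a description of values that also formed the clusters, and no test was made. Cluster 3 held 4050081 UMIs (unique molecular identifiers, each standing for 1 captured transcript), which was 7.5% of the Ctrl total. Cluster 5 held 1559445 UMIs, 2.89% of the total, and together the clusters held 10.4% of 53980929 UMIs. At the median of 4472 UMIs for a Ctrl nucleus this corresponds to 906 nuclei of median depth in cluster 3 and 349 in cluster 5, which are equivalents and not numbers of nuclei.

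The study profiled nuclei of epididymal adipose tissue from male C57BL/6J mice at 3 stages of obesity. All mice were 5 weeks old when purchased and were acclimatised for 1 week. Ctrl mice were fed the ordinary diet. The Mid_Ob and Ob mice were fed high-fat diet (60% fat), and their body weight was required to pass the Ctrl mean by 10% for Mid_Ob and by 20% for Ob. Fat of 8 mice was mixed into 1 tube per stage, so each stage is 1 library with no replicate, and the spread between mice cannot be seen. The Mid_Ob library had 11 clusters and the Ob library 21. Cluster 6 of Mid_Ob (2337091 UMIs) and cluster 12 of Ob (2765668 UMIs) are set beside the Ctrl pair below. Gpm6a, Upk1b, Msln and Isl1 stood highest of their library in these clusters, but Col8a1 did not. Col8a1 had 214 CPM in cluster 6 against 288 CPM in another Mid_Ob cluster. In cluster 12 it had 146 CPM against 804 CPM in another Ob cluster.

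The mesothelium is the single layer of flat cells that covers the organs and fat pads of the body cavities, including the surface of epididymal fat. Its cells combine epithelial features, such as keratins, tight junctions and apical mucins, with mesenchymal ones, such as collagen production. They arise from the lateral plate mesoderm, keep transcription factors of that origin such as Wt1 and Gata6, and make the slippery film that lets organs glide.

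Levels are given in CPM, the UMIs of a gene over all UMIs of the same cluster, scaled to one common total. A ratio is cluster 3 over cluster 5, with a 95% interval in parentheses that covers counting error of UMIs only, not differences between nuclei or mice. A gene was called higher or lower in cluster 3 when its ratio passed 1.5-fold in that direction with at least 50 counts in both clusters together, which left 10850 of 28930 listed genes. A cluster mean does not tell fewer nuclei with a transcript from fewer transcripts per nucleus.

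Markers other than the 5 used for the choice were read to check the mesothelial label. Of 15 such mesothelial markers 14 reached 50 counts, 12 of them had their highest Ctrl level in cluster 3 or 5, and 10 were more than 2-fold above every one of the 12 other Ctrl clusters in both. Their summed level was 6880 CPM in cluster 3 and 5691 CPM in cluster 5, against 245 to 1289 CPM in the 12 other clusters. It was 6834 CPM in cluster 6 of Mid_Ob and 6097 CPM in cluster 12 of Ob. These markers did not go against the label, although they too were among the genes from which the clusters were formed. The exceptions were Krt8 and Krt18, simple epithelial keratins, which stood highest in other clusters. Krt8 had 81 counts in cluster 3 and 39 in cluster 5, with its highest level in cluster 1. Krt18 had 51 counts in cluster 3 and 20 in cluster 5, with its highest level in cluster 8. Calb2, the calretinin gene, had 0 counts in both, which allows up to 0.741 CPM in cluster 3 and 1.92 CPM in cluster 5.

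**Figure D1:**
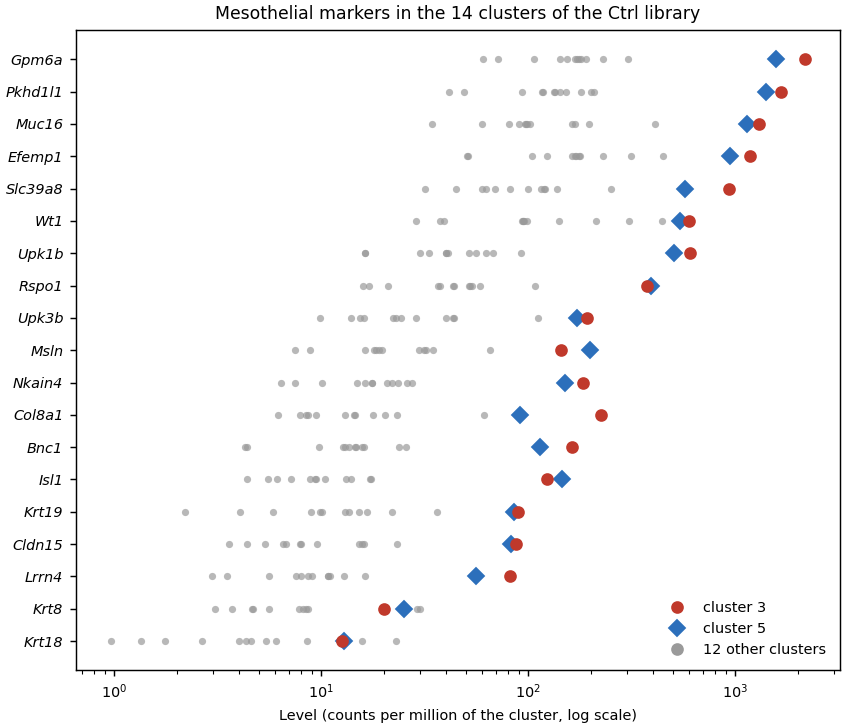
Levels of 19 mesothelial markers, including the 5 used for the choice, in the 14 clusters of the Ctrl library, in CPM on a log axis, with cluster 3 as circles, cluster 5 as diamonds and the 12 other clusters as grey points. For 17 of the 19 the highest level is in cluster 3 or 5, and the keratins Krt8 and Krt18 at the bottom are the exceptions.

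Gpm6a, which encodes a neuronal membrane glycoprotein, had 2167 CPM in cluster 3 and 1571 CPM in cluster 5, a ratio of 1.38 (1.32 to 1.44), while the highest other cluster had 303 CPM. Upk1b, a uroplakin of the tetraspanin family, had 601 CPM in cluster 3 and 505 CPM in cluster 5, against at most 92.7 CPM elsewhere in Ctrl. Msln, the surface glycoprotein mesothelin, had 143 CPM in cluster 3 and 199 CPM in cluster 5, a ratio of 0.72 (0.62 to 0.83). Isl1, a LIM-homeodomain transcription factor, had 123 CPM in cluster 3 and 146 CPM in cluster 5, and no other Ctrl cluster passed 17.3 CPM. Both clusters therefore carried these 4 markers, Gpm6a and Upk1b at a higher level in cluster 3 and Msln and Isl1 at a higher level in cluster 5, and none of the 4 passed 1.5-fold. Col8a1, a short collagen of basement membranes, was the exception with 225 CPM in cluster 3 and 91.1 CPM in cluster 5, a ratio of 2.47 (2.07 to 2.97). Its level in cluster 5 was nearer to the 61.0 CPM of cluster 4 than to that of cluster 3.

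The promoters of 4 of these genes are shown because Gpm6a and Isl1 mark both clusters, Slc39a8 marks both with a higher level in cluster 3, and Col8a1 separates them. Each sequence is the 250 bases before the annotated start of the gene in RefSeq (GRCm38.p6), read 5′ to 3′ on the strand of the gene. For Gpm6a and Slc39a8, which have more than one entry, it is the first. The stretches are chr8:54779184-54779433 (+) for Gpm6a, chr13:116309689-116309938 (-) for Isl1, chr3:135825029-135825278 (+) for Slc39a8 and chr16:57754738-57754987 (-) for Col8a1. Capitals mark motif matches on either strand, with the first base of each given as bases before the start. Gpm6a held the TEAD motif GGAATG (125 bases before) and Slc39a8 the same motif read from the other strand (63 bases before). Isl1 held CCAAT (80 and 34 bases before). Col8a1 held the GC-box GGGCGG read from the other strand (170, 73, 66 and 23 bases before).
Gpm6a: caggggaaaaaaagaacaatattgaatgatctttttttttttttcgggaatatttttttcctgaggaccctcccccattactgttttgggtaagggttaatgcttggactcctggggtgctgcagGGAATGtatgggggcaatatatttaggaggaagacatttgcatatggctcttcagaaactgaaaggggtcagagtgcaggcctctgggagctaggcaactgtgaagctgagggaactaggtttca
Isl1: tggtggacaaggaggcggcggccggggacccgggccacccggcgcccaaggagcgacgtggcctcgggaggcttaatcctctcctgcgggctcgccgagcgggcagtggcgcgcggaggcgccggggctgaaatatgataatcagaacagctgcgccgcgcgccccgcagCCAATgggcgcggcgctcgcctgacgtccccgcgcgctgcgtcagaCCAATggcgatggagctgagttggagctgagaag
Slc39a8: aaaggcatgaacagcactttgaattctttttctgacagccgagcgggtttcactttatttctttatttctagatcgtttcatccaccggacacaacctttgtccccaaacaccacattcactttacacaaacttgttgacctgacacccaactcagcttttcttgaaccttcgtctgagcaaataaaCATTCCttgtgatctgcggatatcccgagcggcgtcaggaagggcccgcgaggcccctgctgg
Col8a1: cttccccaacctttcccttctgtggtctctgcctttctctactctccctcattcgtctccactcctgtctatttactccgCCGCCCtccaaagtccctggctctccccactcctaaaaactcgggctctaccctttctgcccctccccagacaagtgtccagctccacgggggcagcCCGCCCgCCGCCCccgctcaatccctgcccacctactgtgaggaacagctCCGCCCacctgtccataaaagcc
The genes common to both clusters, described next, numbered 212, and 143 of them had a RefSeq promoter. GGAATG was in 26 of these (18.2%), against 10.8% of the promoters of 8515 genes that reached 50 counts and 12.6% of all 27025 promoters. The GATA motif AGATAA was in 9.09%, against 5.68% and 10.3%, the E-box CATCTG in 6.99%, against 9.4% and 14.5%, and TATAAA in 9.09%, against 6.13% and 3504 of 27025. CCAAT was in 28.7%, against 36.3% and 34.5%, and the GC-box in 46.2%, against 5107 of 8515 (the tested genes) and 32.9%. A match describes letters in the window and is not evidence of binding.

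Both clusters shared 212 genes whose level in each was more than 2-fold above the highest of the 12 other Ctrl clusters, 1.95% of the 10850 genes. These shared genes took 7.77% of the UMIs of cluster 3 and 6.57% of those of cluster 5, against 0.451% to 1.47% in the 12 other clusters. Smo, just inside this limit, had 182 CPM in cluster 3 and 190 CPM in cluster 5 against 90.2 CPM in the highest other cluster. Tbx18, just outside, had 43.2 CPM in cluster 3 and 30.1 CPM in cluster 5 against 15.1 CPM. Isl1, itself a gene used for the choice of the clusters, had the largest margin among genes with at least 200 counts and an established symbol. Rbfox1, a splicing regulator best known from neurons and muscle, had 3515 CPM in cluster 3 and 3472 CPM in cluster 5 (ratio 1.01, 0.98 to 1.04) against at most 504 CPM. Pkhd1l1, a relative of the polycystic kidney protein fibrocystin, had 1663 CPM in cluster 3 and 1405 CPM in cluster 5. Il1rapl1, a synaptic receptor of the interleukin-1 receptor family, had 2181 CPM in cluster 3 and 1675 CPM in cluster 5. Tubb3, the neuronal tubulin gene, had 8 counts in cluster 3 and 2 in cluster 5, and of 11 glia and neuron markers Rbfox1 alone was a shared gene.

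Signalling and structural genes were shared as well. Fgf1, a growth factor without a secretion signal, had 799 CPM in cluster 3 and 652 CPM in cluster 5. Cdh11, a mesenchymal cadherin, had 984 CPM in cluster 3 and 677 CPM in cluster 5, a ratio of 1.46 (1.36 to 1.56). Fras1, a protein of the basement membrane, had 947 CPM in cluster 3 and 741 CPM in cluster 5. Abcb1b, an efflux transporter of the P-glycoprotein family, had 525 CPM in cluster 3 and 491 CPM in cluster 5. Myocd, a coactivator that drives smooth muscle genes, was low in both, with 162 counts in cluster 3 and 47 in cluster 5 (ratio 1.33, 0.95 to 1.88), and at most 5.05 CPM elsewhere in Ctrl.

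The shared genes recurred in the mesothelial-like clusters of the other libraries. Those clusters were chosen with earlier results of these data known and checked against the mesothelial markers. A high overlap therefore follows in part from the choice, and how large that part is was not tested. Of the 212, 158 (74.5%) were also more than 2-fold above every other Mid_Ob cluster in cluster 6, beside 304 of 10843 genes (2.8%) in all, so that shared genes were 52.0% of the Mid_Ob list. In cluster 12 of Ob they were 161 (75.9%), beside 312 of 10842 genes (2.88%), or 51.6% of the Ob list. Both libraries held 135 of them and neither held 28. The 212 genes took 7.08% of UMIs in cluster 6 of Mid_Ob (0.454% to 1.35% in its other clusters) and 6.66% in cluster 12 of Ob (0.317% to 1.39%). Rapgef5, an exchange factor for small GTPases, had 869 CPM in cluster 3 and 718 CPM in cluster 5 against at most 160 CPM in the other Ctrl clusters, but in Ob another cluster reached 870 CPM and cluster 12 had 401 CPM.

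Across the 10850 genes, Pearson's r of log2(CPM + 1) was 0.966 between clusters 3 and 5. It is a description across genes, which are not replicates, of 2 clusters from the same library. The nearest other Ctrl cluster was cluster 4, with r of 0.861 to cluster 3 and 0.856 to cluster 5. Over the 10837 genes listed in all 3 libraries, cluster 6 of Mid_Ob had r of 0.920 to cluster 3 and 0.864 to cluster 5, and cluster 12 of Ob had r of 0.878 to cluster 3 and 0.829 to cluster 5. Except for cluster 4, r to each of the other Ctrl clusters was higher for cluster 5 than for cluster 3. The r to cluster 1 was 0.699 for cluster 3 and 0.785 for cluster 5, and the r to cluster 11 was 0.656 for cluster 3 and 0.669 for cluster 5.

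**Figure D2:**
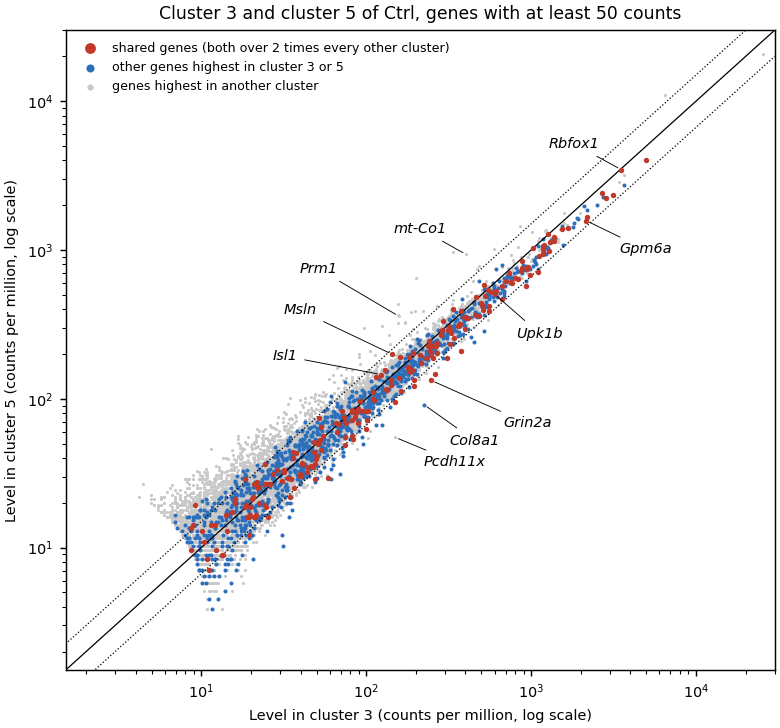
Level of each of 10850 genes in cluster 3 (x axis) and cluster 5 (y axis) of Ctrl, in CPM on log axes, with the line of equality and dotted lines at 1.5-fold. The 212 shared genes (red) and the other genes that stand highest in cluster 3 or 5 (blue) lie close to the line, and most of the points above the upper dotted line are grey, genes that stand highest in another Ctrl cluster.

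In all, 315 genes were higher in cluster 3 (2.9%) and 1408 were lower (13%), and the median log2 ratio was −0.08. Of the 1408 lower genes 1338 had their highest Ctrl level in one of the 12 other clusters (beside 88.5% of all 10850 genes). For 16 higher and 277 lower genes the whole interval lay past 1.5-fold. Of the 16 higher genes 13 stood highest in cluster 3 or 5, and of the 277 lower genes none did. Of these 277, 256 stood highest in clusters 1, 6, 7, 12, 13 or 14, the 6 clusters with the highest spermatocyte sums (823 to 2700 CPM, with 372 CPM in cluster 10 next). That is 92.4%, beside 5220 (48.1%) of all 10850 genes. This grouping does not make each of them a germ cell gene. Cluster 1 also had the highest mitochondrial (18517 CPM) and ribosomal protein (12270 CPM) sums, and cluster 6 the highest Leydig sum (476 CPM). The 277 included 10 mitochondrially encoded and 10 ribosomal protein genes, and also Lpl, Fabp4, Ctsb and Cfd, which stood highest in cluster 1. At the upper limit, Abcg8 just inside had 13.6 CPM in cluster 3 and 8.98 CPM in cluster 5, and Zfp282 just outside had 45.2 CPM in cluster 3 and 30.1 CPM in cluster 5. At the lower limit, Sf3b2 just inside had 55.6 CPM in cluster 3 and 83.4 CPM in cluster 5, and Fibin just outside had 24.4 CPM in cluster 3 and 36.6 CPM in cluster 5.

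Scaling mattered for these counts. When each cluster was scaled to its UMIs of the 212 shared genes, a choice made after seeing the data, every log2 ratio moved by −0.24. There were then 108 higher and 2722 lower genes, and the whole interval lay past 1.5-fold for 4 higher genes and 578 lower genes. Those 4 were Col8a1, Bmp3, Fhl2 and Pcdh11x. Bmp3, a growth factor gene, had 31.4 CPM in cluster 3 and 10.3 CPM in cluster 5. Fhl2, a LIM-domain protein gene, had 15.3 CPM in cluster 3 and 1.28 CPM in cluster 5, from 64 counts in all. Pcdh11x, a protocadherin gene, had 149 CPM in cluster 3 and 55.1 CPM in cluster 5, with 193 CPM in cluster 8.

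Genes that stood highest in cluster 3 or 5 numbered 1244, 776 with the highest Ctrl level in cluster 3 and 468 in cluster 5, which fixes the side of their ratio. Of these, 83 were higher and 70 lower in cluster 3, with a median log2 ratio of 0.12, and −0.10 over the 9606 other genes. Of the 212 shared genes 152 had a ratio above 1, 18 were higher and 4 lower, and their median was 0.19.

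Col8a1 led the 15 largest ratios among genes that stood highest in cluster 3 and had at least 200 counts. Mitochondrial genes and genes with provisional symbols (such as Gm or Rik) were left out of this ranking. Synpr, the vesicle protein synaptoporin, had 69.6 CPM in cluster 3 and 31.4 CPM in cluster 5. Gabra4, a GABA receptor subunit, had 58.3 CPM in cluster 3 and 29.5 CPM in cluster 5. Grin2a, an NMDA receptor subunit, had 248 CPM in cluster 3 and 133 CPM in cluster 5 (1.87, 1.61 to 2.18), against at most 28.4 CPM elsewhere. Dlg2, a scaffold of postsynaptic sites, had 451 CPM in cluster 3 and 239 CPM in cluster 5, and 290 CPM in cluster 13. Trpc4, a cation channel, had 61.0 CPM in cluster 3 and 34.0 CPM in cluster 5. Gabra4, Grin2a and Spock3, a matrix proteoglycan with 263 CPM in cluster 3 and 147 CPM in cluster 5, were also shared genes.

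Vegfc, the growth factor of lymphatic vessels, had 519 CPM in cluster 3 and 287 CPM in cluster 5 (1.81, 1.63 to 2.01), beside 193 CPM in cluster 4, 250 CPM in cluster 6 of Mid_Ob and 195 CPM in cluster 12 of Ob. Another Mid_Ob cluster had 235 CPM of Vegfc and another Ob cluster 253 CPM. Tnfrsf11b, the decoy receptor osteoprotegerin, had 72.6 CPM in cluster 3 and 41.0 CPM in cluster 5, with 98.0 CPM in cluster 6 of Mid_Ob and 196 CPM in cluster 12 of Ob. Rnd3, a small GTPase, had 61.5 CPM in cluster 3 and 28.9 CPM in cluster 5, beside 55.9 CPM in cluster 9. Mrvi1, a substrate of cGMP-dependent kinase, had 125 CPM in cluster 3 and 66.7 CPM in cluster 5, beside 74.6 CPM in cluster 4. Slc39a8, a mesothelial marker outside these 15 that transports zinc and manganese, had 933 CPM in cluster 3 and 573 CPM in cluster 5 (1.63, 1.51 to 1.75).

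Among genes highest in cluster 5 with at least 200 counts, Stub1 had the lowest ratio, again leaving out mitochondrial genes and provisional symbols. Stub1, a ubiquitin ligase that works with chaperones, had 74.6 CPM in cluster 3 and 130 CPM in cluster 5 (0.57, 0.48 to 0.69). Arhgef25, an exchange factor for small GTPases, had 61.2 CPM in cluster 3 and 105 CPM in cluster 5. Ulk1, the kinase that starts autophagy, had 34.3 CPM in cluster 3 and 55.1 CPM in cluster 5. Tex264, a receptor for autophagy of the endoplasmic reticulum, had 33.3 CPM in cluster 3 and 52.6 CPM in cluster 5, and Prnp, the prion protein gene, had 41.0 CPM in cluster 3 and 61.6 CPM in cluster 5. These genes were not particular to the pair. The highest other Ctrl cluster had 75.5 CPM of Stub1, 66.7 CPM of Arhgef25, 36.9 CPM of Tex264 and 54.9 CPM of Prnp. Each of these levels was above that of cluster 3. For Ulk1 it was 32.0 CPM, just below cluster 3. In Mid_Ob another cluster stood above cluster 6 for every gene named here, and in Ob another stood above cluster 12. None of the 70 lower genes had its whole interval past 1.5-fold. Their median gene span (GENCODE M21) was 11.9 kb, against 45.0 kb for the 83 higher genes and 30.2 kb for all 1244.

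**Figure D3:**
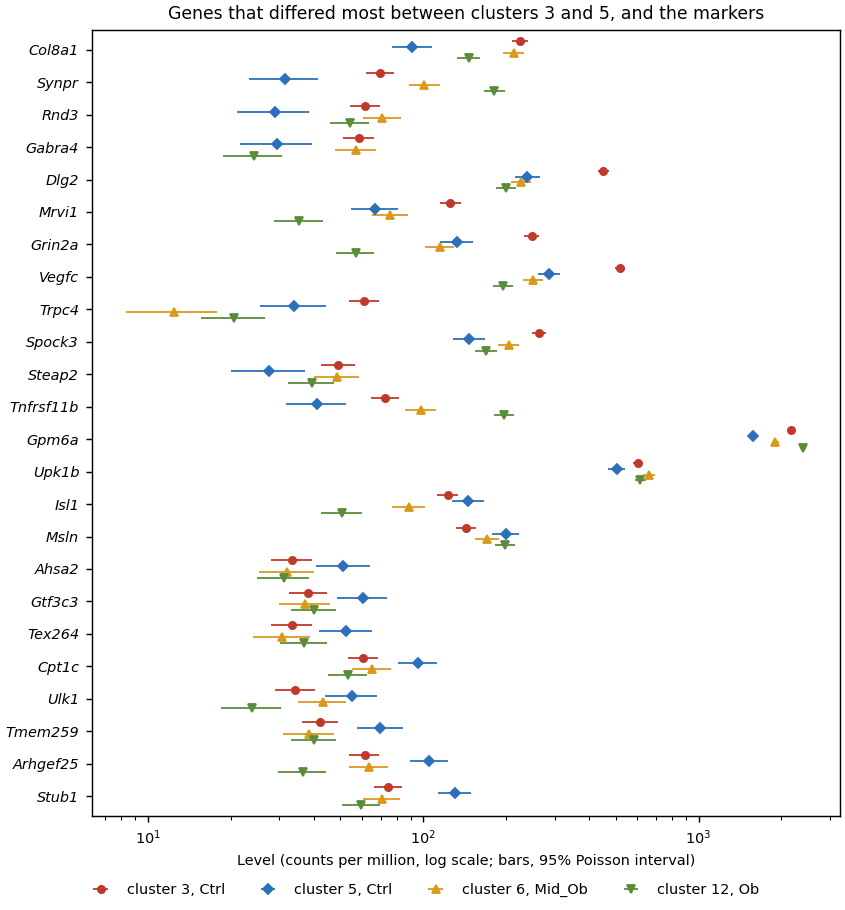
Levels in CPM (log axis) with 95% Poisson intervals in clusters 3 and 5 of Ctrl, cluster 6 of Mid_Ob and cluster 12 of Ob. The genes are those that differed most between cluster 3 and cluster 5 among genes highest in either, with 4 further mesothelial markers. Only genes with at least 200 counts were ranked, leaving out mitochondrial genes and provisional symbols. Col8a1 had 225 CPM in cluster 3 and 91.1 CPM in cluster 5, and Stub1 at the bottom had 74.6 CPM in cluster 3 and 130 CPM in cluster 5.

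The ratio moved with gene span. Among the 1244 genes the median log2 ratio was −0.15 for 188 genes under 10 kb, −0.03 for 428 genes of 10 to 30 kb, 0.15 for 364 genes of 30 to 100 kb, 0.24 for 207 genes of 100 to 300 kb and 0.31 for 56 genes over 300 kb. Over all 10844 genes with a span it was −0.31, −0.14, −0.04, 0.05 and 0.09 in the same bins. The part of gene span in any named ratio was not tested.

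Across all genes the ratio also moved with the cluster in which a gene stood highest. The median log2 ratio was −0.33 for 621 genes highest in cluster 1, −0.25 for 1284 in cluster 12, −0.22 for 613 in cluster 7 and for 1130 in cluster 13, and −0.14 for 832 in cluster 14. It was 0.14 for 570 genes highest in cluster 4 and between −0.08 and 0.02 for those highest in clusters 2, 6, 8, 9, 10 and 11.

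**Figure D4:**
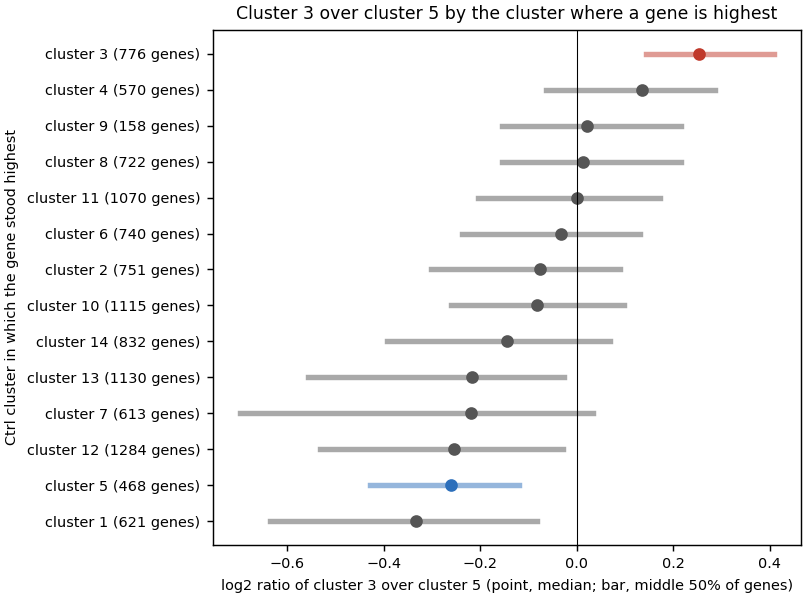
Median log2 ratio of cluster 3 over cluster 5 (points) with the middle 50% of genes (bars), for genes grouped by the Ctrl cluster in which they stood highest. Genes highest in cluster 3 or 5 lie on one side of 0 by the grouping itself, and among the others the medians run from −0.33 for cluster 1 to 0.14 for cluster 4.

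Several lists of RNA quality and of other cell markers had lower sums in cluster 3 than in cluster 5. Counts of list members here and below stand beside 2.9% of all 10850 genes higher and 13% lower. The 13 mitochondrially encoded genes summed to 1550 CPM in cluster 3 and 4078 CPM in cluster 5 (0.38, 0.37 to 0.39), and all 13 were lower in cluster 3. The range in the 12 other clusters was 916 to 18517 CPM, highest in cluster 1. Cytosolic ribosomal protein genes summed to 2795 CPM in cluster 3 and 4445 CPM in cluster 5, with 45 of 78 lower and 0 higher. Nuclear long noncoding RNAs, led by Malat1 (25415 CPM in cluster 3 and 20844 CPM in cluster 5), summed to 29979 CPM in cluster 3 and 25244 CPM in cluster 5.

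Germ cell transcripts were present in both clusters. Spermatid markers summed to 425 CPM in cluster 3 and 934 CPM in cluster 5 (0.46, 0.42 to 0.49), with all 9 of 9 measured members lower, beside 239 to 11089 CPM in the 12 other clusters. They summed to 13.3 CPM in cluster 6 of Mid_Ob and 6.51 CPM in cluster 12 of Ob. Prm1, a protamine that packs sperm DNA, led them with 158 CPM in cluster 3 and 359 CPM in cluster 5, and with 2.57 CPM in cluster 6 of Mid_Ob and 0.723 CPM in cluster 12 of Ob. Spermatocyte markers summed to 158 CPM in cluster 3 and 369 CPM in cluster 5, with 6 of 7 lower, and to 14.1 CPM in cluster 6 of Mid_Ob and 19.9 CPM in cluster 12 of Ob. Genes highest elsewhere were ranked with at least 200 counts, leaving out mitochondrial genes and provisional symbols. The mitochondrial mt-Co2, with a ratio of 0.31 (0.28 to 0.34), stood below all 5 lowest ratios of this ranking. Of these 5 genes, Fsip2, Ldhc and Dnah14 had 0 to 1.45 CPM in both the Mid_Ob and the Ob cluster. The other two were Akap12, with 18.4 CPM in Mid_Ob and 10.1 CPM in Ob, and Lrriq1, with 5.56 CPM in Mid_Ob and 2.53 CPM in Ob. Sertoli markers summed to 116 CPM in cluster 3 and 195 CPM in cluster 5 (2 of 3 lower). Ciliated epithelium markers summed to 155 CPM in cluster 3 and 301 CPM in cluster 5 (4 of 6 lower). Epididymal epithelium markers, nearly all Adgrg2, summed to 404 CPM in cluster 3 and 408 CPM in cluster 5 (2 of 3 lower).

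Adipocyte, macrophage, lymphocyte and endothelial markers were low beside the Ctrl cluster with the highest sum. That sum was 10921 CPM for macrophage markers (cluster 11), 2900 CPM for lymphocyte markers (cluster 10) and 991 CPM for endothelial markers (cluster 4). Pericyte and smooth muscle markers reached only 201 CPM in any cluster (cluster 4). Adipocyte markers summed to 2145 CPM in cluster 3 and 2907 CPM in cluster 5, against 21598 CPM in cluster 2, with 9 of 15 lower and 0 higher, among them Lpl, lipoprotein lipase (171 CPM in cluster 3 and 323 CPM in cluster 5). Macrophage markers summed to 665 CPM in cluster 3 and 846 CPM in cluster 5, with 4 of 13 lower, and lymphocyte markers to 46.4 CPM in cluster 3 and 108 CPM in cluster 5, with 3 of 3 lower. Endothelial markers summed to 124 CPM in cluster 3 and 133 CPM in cluster 5 (1 of 3 higher). Pericyte and smooth muscle markers summed to 69.1 CPM in cluster 3 and 69.3 CPM in cluster 5 (1 of 3 higher and 1 lower), and Leydig markers to 63.5 CPM in cluster 3 and 71.2 CPM in cluster 5 (1 of 2 higher and 1 lower). Glia and neuron markers summed to 3595 CPM in cluster 3 and 3591 CPM in cluster 5, almost all of it Rbfox1 (1 of 4 lower). Both sums were above every other Ctrl cluster (at most 1471 CPM, in cluster 14). The part of RNA of these other cells in the ratios of cluster 3 over cluster 5 was not tested.

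**Figure D5:**
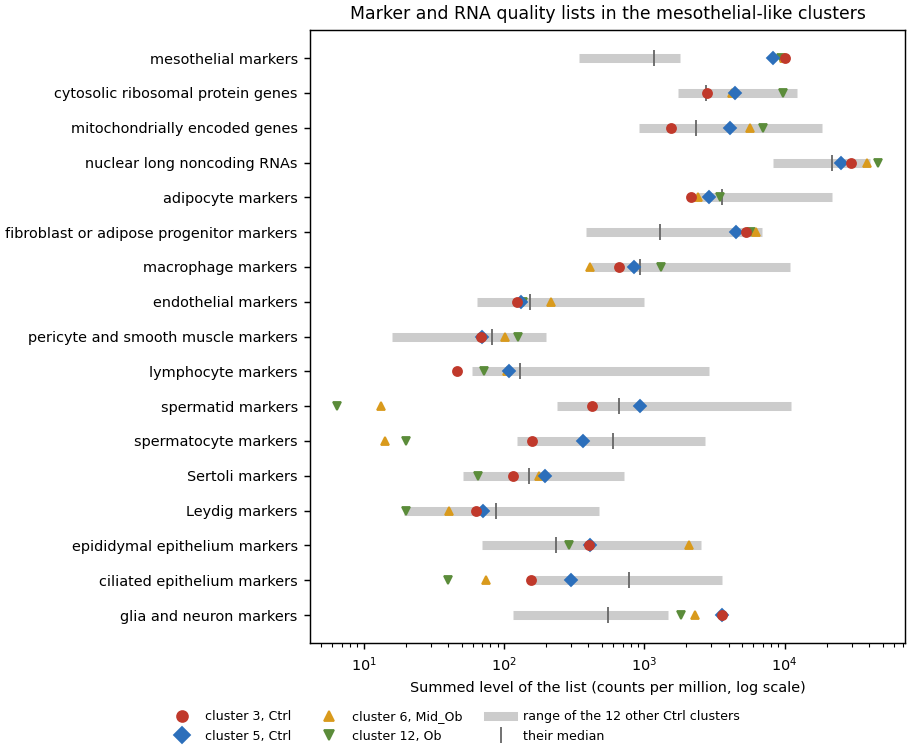
Summed levels in CPM (log axis) of the mesothelial list, 3 RNA quality lists and 13 lists of other cell markers, in clusters 3 and 5 of Ctrl, cluster 6 of Mid_Ob and cluster 12 of Ob, with the range (grey bar) and median (tick) of the 12 other Ctrl clusters. Mitochondrial, ribosomal protein, spermatid and spermatocyte sums are lower in cluster 3 than in cluster 5, and the Mid_Ob and Ob clusters have under 20 CPM of the spermatid and spermatocyte lists each.

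Of 19 measured transcription factors of the mesothelium and gonadal surface, 0 passed 1.5-fold between the clusters. The list summed to 8667 CPM in cluster 3 and 7533 CPM in cluster 5, below 12216 CPM in cluster 4 and 9506 CPM in cluster 2. Gata6, a regulator of mesodermal and endodermal lineages, had 253 CPM in cluster 3 and 189 CPM in cluster 5. Osr1, a factor of intermediate mesoderm, had 178 CPM in cluster 3 and 164 CPM in cluster 5, and Bnc1, basonuclin, had 162 CPM in cluster 3 and 114 CPM in cluster 5. All 3 were shared genes, as were Isl1, itself used for the choice, and Gata5 (24.4 CPM in cluster 3 and 26.9 CPM in cluster 5). Wt1, the Wilms tumour factor, had 596 CPM in cluster 3 and 543 CPM in cluster 5, but cluster 6 had 441 CPM. HOX genes, which record position along the body axis, had 0 of 15 past 1.5-fold and 0 shared genes (1.95% of all 10850 genes were shared). They summed to 638 CPM in cluster 3 and 657 CPM in cluster 5, below 791 CPM in cluster 8. Hoxc6 (108 CPM in cluster 3 and 80.2 CPM in cluster 5) and Hoxa3 (96.0 CPM in cluster 3 and 98.8 CPM in cluster 5) led them.

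Of 13 lubricating surface and hyaluronan genes 0 were higher and 1 was lower (Prg4, lubricin). Muc16, Has1 and Msln were shared, of which Msln had been used for the choice. Muc16, the membrane mucin that binds mesothelin, had 1302 CPM in cluster 3 and 1136 CPM in cluster 5, against at most 410 CPM elsewhere in Ctrl. Has1, a hyaluronan synthase, had 30.9 CPM in cluster 3 and 28.2 CPM in cluster 5, with 118 CPM in cluster 6 of Mid_Ob and 90.4 CPM in cluster 12 of Ob. Junction genes had 1 of 33 higher and 3 lower (2.9% and 13% over all genes). The tight junction genes Cldn15 (87.4 CPM in cluster 3 and 82.1 CPM in cluster 5) and Cgnl1 (611 CPM in cluster 3 and 527 CPM in cluster 5) were shared, and the lower Ctnna3, a catenin, had 125 CPM in cluster 3 and 309 CPM in cluster 5, but 4272 CPM in cluster 13. Complement genes summed to 2160 CPM in cluster 3 and 2166 CPM in cluster 5, with 0 of 16 higher and 2 lower (Cfd and C1qa, which stood highest in clusters 1 and 11). C2 was shared (193 CPM in cluster 3 and 205 CPM in cluster 5), and C3, the central component, had 308 CPM in cluster 3 and 313 CPM in cluster 5.

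Matrix genes were plentiful in both clusters, but not in them alone. Matrix glycoproteins and proteases summed to 8328 CPM in cluster 3 and 7002 CPM in cluster 5, beside 9300 CPM in cluster 4. Basement membrane and integrin genes summed to 2712 CPM in cluster 3 and 2528 CPM in cluster 5, beside 4824 CPM in cluster 4. The collagen sum of cluster 4 was 5063 CPM. Adamtsl1, a secreted matrix protein, had 2839 CPM in cluster 3 and 2225 CPM in cluster 5, more than 2-fold above the 604 CPM of cluster 4. Collagen chains summed to 5079 CPM in cluster 3 and 4394 CPM in cluster 5, with 2 of 25 higher (Col8a1 and Col12a1) and 1 lower (Col5a3), led by Col3a1 (1316 CPM in cluster 3 and 1159 CPM in cluster 5). Among 35 matrix glycoproteins and proteases 5 were higher, including Hmcn1 (ratio 1.56, 1.40 to 1.75) and Adamts9 (274 CPM in cluster 3 and 163 CPM in cluster 5), and 2 lower. Basement membrane and integrin genes had 3 of 27 higher and 1 lower, with the nidogen Nid2 shared (255 CPM in cluster 3 and 227 CPM in cluster 5). Fibroblast or adipose progenitor markers had 0 of 14 past the limit and summed to 5270 CPM in cluster 3 and 4518 CPM in cluster 5, beside 6917 CPM in cluster 4. Dpp4, a peptidase that also marks adipose progenitors, was among the shared genes (1183 CPM in cluster 3 and 948 CPM in cluster 5).

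Axon guidance genes, many of which act outside the nervous system, included 5 shared genes of 29, beside 1.95% of all 10850 genes. They summed to 12786 CPM in cluster 3, 10378 CPM in cluster 5 and 10377 CPM in cluster 4. Flrt2, an adhesion protein that also repels axons, had 3143 CPM in cluster 3 and 2354 CPM in cluster 5 (1.34, 1.29 to 1.39), the ephrin Efna5 had 2705 CPM in cluster 3 and 2398 CPM in cluster 5, and Plxna4, a semaphorin receptor, 1285 CPM in cluster 3 and 983 CPM in cluster 5. The median log2 ratio of the list was 0.26, beside the median of −0.08 over all genes. The median was 0.23 for the chemokine, cytokine and receptor list and 0.20 for the mesothelial list. The scaling to shared genes lowers every such median by the same 0.24, to 0.02 for the axon guidance list, −0.01 for the chemokine list and −0.05 for the mesothelial list.

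Growth factor and receptor lists are set beside 15.9% of all 10850 genes called in either direction. Of 36 FGF, IGF, EGF and VEGF genes 4 were higher and 5 lower, and Fgf9 (102 CPM in cluster 3 and 83.4 CPM in cluster 5) was shared beside Fgf1. Of 31 TGF-beta and BMP genes 2 were higher, Bmp3 and Ltbp2 (71.9 CPM in cluster 3 and 43.6 CPM in cluster 5), and Bmp4 (82.0 CPM in cluster 3 and 84.0 CPM in cluster 5) and Chrdl1 (397 CPM in cluster 3 and 293 CPM in cluster 5) were shared. Of 26 WNT pathway genes 0 were higher and 2 lower. Rspo1, a secreted enhancer of WNT signals, was shared, with 376 CPM in cluster 3 and 390 CPM in cluster 5. Of 9 Notch and Hedgehog genes 1 was lower, and of 13 chemokine, cytokine and receptor genes 2 were higher, with the lymphocyte attractant Il16 (408 CPM in cluster 3 and 349 CPM in cluster 5) and the alarmin Il33 (111 CPM in cluster 3 and 100 CPM in cluster 5) shared. Of 20 YAP and TEAD genes 1 was higher, Vgll3 (182 CPM in cluster 3 and 120 CPM in cluster 5). Tead1, a transcription factor of that pathway, had 825 CPM in cluster 3 and 707 CPM in cluster 5.

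Metabolic and transport genes also included shared members. Aldh1a1, a retinal dehydrogenase, had 1789 CPM in cluster 3 and 1431 CPM in cluster 5, and its relative Aldh1a2, which makes retinoic acid, was shared (142 CPM in cluster 3 and 123 CPM in cluster 5). The chloride channel gene Ano1 was shared as well, with 706 CPM in cluster 3 and 614 CPM in cluster 5. Of 18 nuclear receptors and steroid response genes 2 were lower, and Fkbp5, which glucocorticoids induce, had 1109 CPM in cluster 3 and 1154 CPM in cluster 5, against 562 CPM in cluster 6 of Mid_Ob and 603 CPM in cluster 12 of Ob. Of 10 retinoid genes 1 was lower, and of 19 transport genes 2 were higher and 2 lower.

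The next lists are again set beside 2.9% of all 10850 genes higher and 13% lower. Of 7 acute phase and barrier defence genes 4 were lower, Lbp, Lyz2, Hp and Lcn2, and 0 of the 7 stood highest in cluster 3 or 5. The list summed to 208 CPM in cluster 3 and 255 CPM in cluster 5, against 879 CPM in cluster 2. The haptoglobin gene Hp had 13.1 CPM in cluster 3 and 29.5 CPM in cluster 5. Of 7 cell division genes 5 were lower, among them the mitotic motor Kif11 (7.90 CPM in cluster 3 and 20.5 CPM in cluster 5), which reached 233 CPM in cluster 13. Of 18 interferon and MHC class I genes 1 was lower, and H2-K1 had 444 CPM in cluster 3 and 615 CPM in cluster 5. Of 11 mesenchymal transition genes 2 were higher, Prrx1 (62.0 CPM in cluster 3 and 37.2 CPM in cluster 5) and Fap, and 1 was lower, Ctsk. Of 14 immediate early and heat shock genes 1 was lower, Hsp90aa1 (89.6 CPM in cluster 3 and 140 CPM in cluster 5), and of 13 stress and senescence genes 1 was higher and 2 were lower.

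The mesothelial-like clusters of the other libraries were compared with cluster 3 and cluster 5 over the genes that differed between these. Of 1717 such genes listed in Mid_Ob, 1310 (76.3%) had a level in cluster 6 closer, on the log2 scale, to cluster 3 than to cluster 5, and of 1716 genes in Ob the count was 1167 (68.0%) for cluster 12. Most of these were lower genes that stood highest in another Ctrl cluster, 1051 (of 1332) in Mid_Ob and 923 (of 1331) in Ob. They include germ cell genes, whose spermatid list summed to only 13.3 CPM in Mid_Ob and 6.51 CPM in Ob. The part of such genes in the shares was not tested. Nor was that of counting error, which is larger in cluster 5 and enters the 1.5-fold choice of genes. With at least 500 counts the shares were 63.3% in Mid_Ob and 50.6% in Ob. Among genes that stood highest in cluster 3 or 5 the shares were 103 of 153 (67.3%) in Mid_Ob and 98 of 153 (64.1%) in Ob. They differed by direction, with 49 of 83 higher genes and 54 of 70 lower genes nearer to cluster 3 in Mid_Ob, and 42 of 83 and 56 of 70 in Ob. Col8a1 had 214 CPM in cluster 6 of Mid_Ob and 146 CPM in cluster 12 of Ob, between 225 CPM in cluster 3 and 91.1 CPM in cluster 5, while Msln had 171 CPM in Mid_Ob and 198 CPM in Ob and Isl1 88.6 CPM in Mid_Ob and 50.6 CPM in Ob. Grin2a had 115 CPM in Mid_Ob and 56.8 CPM in Ob, at or below its 133 CPM in cluster 5. With 1 library per stage these comparisons have no replicate check.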

How the data were processed

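Nuclei of 3 libraries, 1 per stage, were captured with 10x Genomics reagents. The authors used Cell Ranger, which includes STAR. The build of the genome is not given in the sources used here, nor are tool versions. The deposited signal is the mean count of a gene in a cluster, the UMIs summed over nuclei and divided by their summed size factors. The deposited tables also hold the authors' log2 fold changes and adjusted p-values, which were not used. The study's methods describe later filters on nuclei and removal of doublets, and whether the tables precede these steps is not stated.

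Each column's smallest step was taken as 1 UMI, which gave whole counts (100% of values whole within 0.01 counts), and these were scaled to the column total. Intervals are 95% Clopper-Pearson (ratios) or exact Poisson (levels), tested on simulated data. Against 0, 3 counts were used. The clusters, gene lists and rules were chosen with earlier results of these data known. Named genes are the 5 markers, the 20 shared genes with the largest margin, the 15 highest and 15 lowest ratios among genes highest in cluster 3 or 5 and the 5 and 5 among others (at least 200 counts), and list members by abundance or past 1.5-fold. The rankings left out mitochondrial genes and genes with provisional symbols (such as Gm or Rik). Bmp3 and Fhl2 with the other genes past the limit under the shared scaling, Smo, Tbx18, Rapgef5, Abcg8, Zfp282, Sf3b2 and Fibin were named for their place after their values were seen. Spans came from GENCODE M21. Alternatives were other scalings, count minimums, fold limits and definitions of shared genes. Calculations ran in Python 3.11.15 (pandas 2.3.3, numpy 2.4.6 and scipy 1.17.1) and plots in matplotlib 3.10.9. A few genes that these rules name are not reported here. Per-nucleus data were not analysed here.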

Additional observations from a re-analysis of the deposited data

How the results depend on the processing

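Against 315 higher and 1408 lower genes, setting the median ratio to 1 gave 456 and 1132, and leaving mitochondrial and ribosomal protein genes out of the totals gave 306 and 1361. Scaling to the shared genes, added after the data were seen, gave 108 and 2722. A minimum of 10 counts gave 1082 and 3675, a minimum of 500 gave 32 and 47, a 2-fold limit gave 41 and 465, an interval wholly past 1.5-fold gave 16 and 277, and genes highest in cluster 3 or 5 alone gave 83 and 70. The 212 shared genes became 357 at 1.5 times and 89 at 3 times the highest other cluster, 1552 at 2 times the median of the others, 233 with at least 10 counts and 115 with at least 500. The share of genes nearer to cluster 3, 76.3% in Mid_Ob and 68.0% in Ob, became 85.2% and 78.8% at 2-fold, 67.3% and 64.1% for genes highest in cluster 3 or 5, and 63.3% and 50.6% with at least 500 counts. Of 259 single-gene ratios and list medians, 80 moved beyond their counting interval (list medians, by 0.1 or more) under the shared scaling, 5 under the median scaling and 0 without mitochondrial and ribosomal protein genes. The cause of these shifts was not tested. The depth of cluster 5, where 3 counts are 1.92 CPM, limits the low genes. No paired analysis was possible because each stage is 1 library and the clusters carry no replicate numbers.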
